A study of Macaca fascicularis with 36 samples.

Results

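The 24 genes described here were chosen on their levels in frontal cortex RNA of 12 cynomolgus monkeys (Macaca fascicularis): in the libraries lettered B, 1 per animal, all 8 animals given the antibody Para09 lay below all 4 animals given the control antibody. Levels are given as CPM, the count of a gene divided by the sum of counts of its library, times 1000000. A gene was eligible with an exonic width over 200 bases and a mean of at least 2 CPM over the 12 libraries, which 13228 of the 28623 genes met, and the 24 members are 0.181% of those. The rule named 3 identifiers to be left out, and 0 of them met its conditions. No reference table used here pairs the identifiers with gene names (0 of 28623 matched), so no function, position or sequence is given for any member. The members are numbered by their place in the order of the gap, which is the lowest anti-gD level divided by the highest Para09 level in letter B, and identifiers are printed for the first 2 places.

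Para09 is an agonist antibody against human TREM2, a receptor that in the brain is carried mainly by microglia, the resident macrophages. TREM2 binds lipids and lipoproteins and signals through the adaptor TYROBP and the kinase SYK, and microglia depend on it for much of their response to myelin debris and amyloid. Cortex RNA also comes from neurons, astrocytes, oligodendrocytes and vessels, and in bulk tissue fewer cells of a type and less RNA per cell cannot be told apart.

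Per the labels, animals 4501 to 4504 were given Para09 at 50 mg/kg, animals 5501 to 5504 Para09 at 200 mg/kg and animals 1501 to 1504 the isotype control anti-gD at 200 mg/kg, all intrathecally, with brain taken on day 2. The labels state no age, and the labelled tissue could not be checked against marker genes, because the identifiers carry no names. Each animal has 3 libraries, A, B and C, and the labels do not say what the letters stand for or whether the libraries of an animal are separate pieces of tissue. P-values below therefore compare these 12 animals. Sample identifiers fall into 2 runs of numbers: the first holds every letter B library, together with letters A and C of 1504 (anti-gD) and 5501 (Para09, 200 mg/kg), and the second the remaining A and C libraries, from 10 animals. In units of 1000000 counts, library totals were 15.1 to 24.9 in letter B and 16.7 to 37.0 in letters A and C. In the same units letter B totals averaged 22.3 ± 3.88 with anti-gD, 18.7 ± 2.64 at the lower Para09 dose and 19.5 ± 3.33 at the higher (SD, n = 4). Library 5501B detected 15779 genes where the other letter B libraries detected 17974 to 18736.

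In letter B the members were of moderate to low level and mostly of modest difference. Their exonic widths ran from 944 to 15319 bases with a median of 4531, against 3026.5 for eligible genes, and 16 of 24 were wider than that median. Per length, their mean anti-gD level in letter B ran from 0.497 to 17.5 (the authors' RPKM, reads scaled to exonic width and library size) with a median of 3.00, against 5.35 for eligible genes. The log2 ratio of mean Para09 to mean anti-gD CPM ran from -1.32 to -0.22 with a median of -0.50, where the median over eligible genes was -0.0023. These are the values that chose the members and carry no test.

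The gap was narrow for most members. It ran from 1.28 down to 1.00, and the lowest anti-gD level exceeded the highest Para09 level by under 5% for 14 of 24 members and by under 1% for 5. The last member inside had 115.4 CPM in its lowest anti-gD library and 115.3 in its highest Para09 library, while the nearest gene outside had 89.1 and 89.3 CPM. In all, 40 eligible genes lay outside with a gap over 0.95. Animal 4504 was the highest Para09 animal for 13 members, and 1504 (9 members) and 1501 (8 members) were most often the lowest anti-gD animal. Without the B library of 4504 the rule found 111 genes, without 1501 85, without 1502 69, without 1504 41 and without 5501 40. Each of these sets held all 24 members. Leaving a library out can only loosen the condition that the groups do not overlap. The mean CPM minimum was taken again over the libraries that remained. With TMM-scaled CPM 16 of the 24 remained. The opposite arrangement, all Para09 libraries above all anti-gD libraries, was met by 9 eligible genes (0.068%) in letter B.

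**Figure D1:**
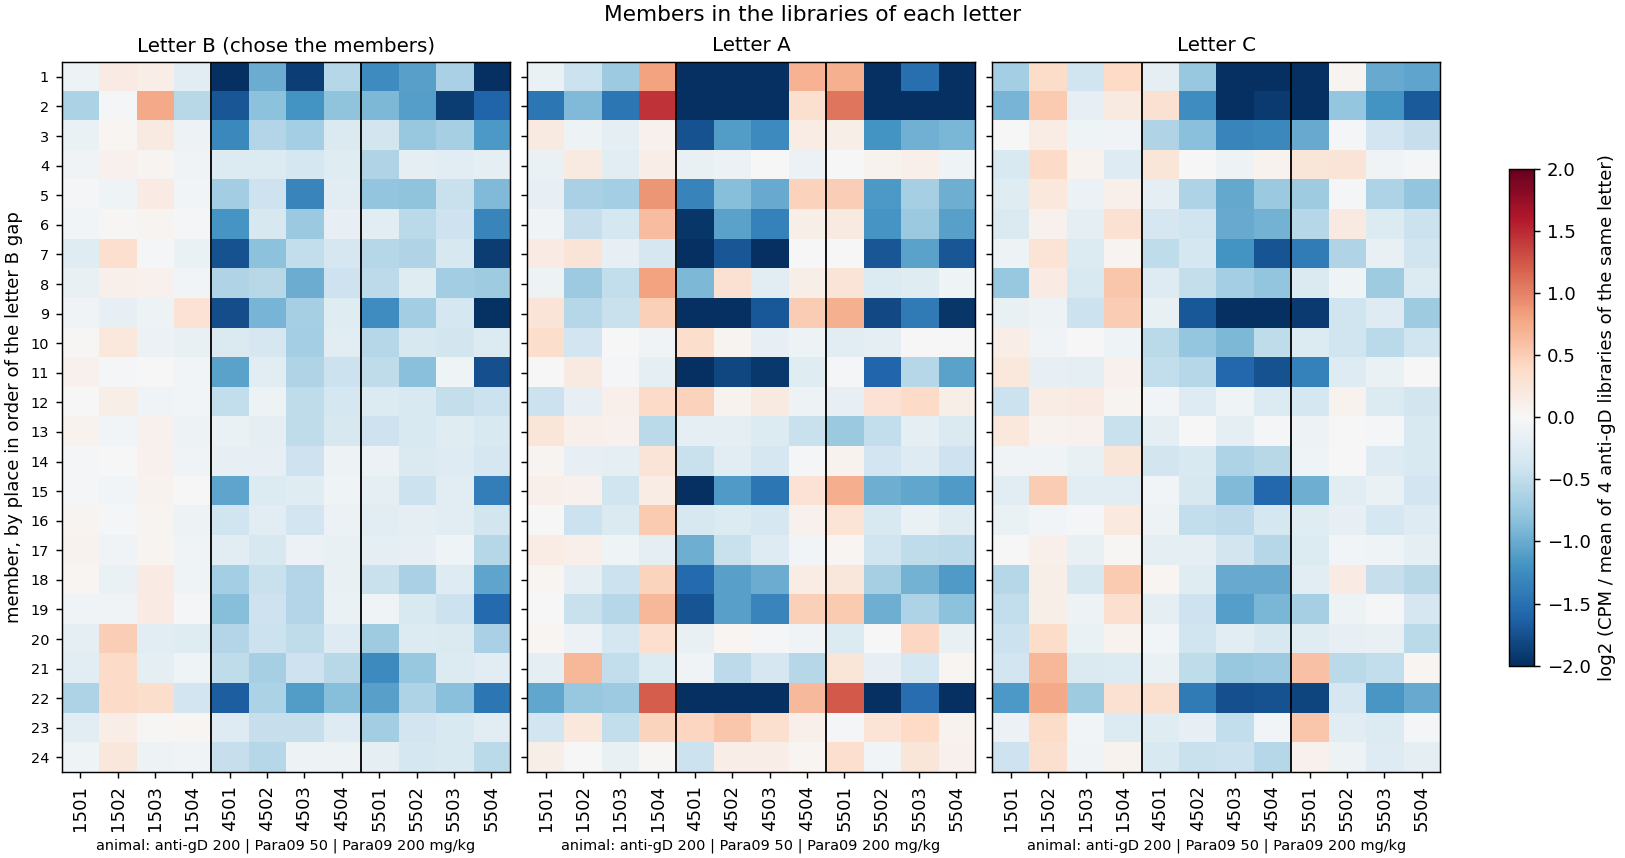
Each row is a member in order of its letter B gap and each column an animal, with panels for letters B, A and C. Colour is the log2 ratio of the library's CPM to the mean of the 4 anti-gD libraries of that letter, and values beyond 2 in either direction take the end colours. Every Para09 column is blue in letter B, which the rule fixed, while in letter A animals 4504 and 5501 show the colours of the controls for most members.

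The widest gap belonged to ENSMFAG00000033410 (place 1, exonic width 1529 bases). In letter B it stood at 5.02, 6.06, 5.93 and 4.64 CPM in anti-gD animals 1501 to 1504. At 50 mg/kg it stood at 0.820, 2.72, 1.46 and 3.63 CPM in animals 4501 to 4504, and at 200 mg/kg at 2.27, 2.55, 3.44 and 0.413 CPM in animals 5501 to 5504. The lowest of these, 5504, rested on 8 reads.

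Letters A and C were not used by the rule, so the same gene was read there again in the same animals. As the mean of letters A and C, anti-gD animals 1501 to 1504 stood at 3.86, 5.33, 3.53 and 7.74 CPM. The 50 mg/kg animals stood at 2.70, 2.19, 0.737 and 4.38 CPM and the 200 mg/kg animals at 4.36, 3.27, 2.22 and 1.64 CPM. The groups overlapped: 4504 and 5501 lay above the lowest 2 anti-gD animals, and the other 6 Para09 animals lay below all anti-gD animals. The group means were 5.11 CPM ± 1.92 with anti-gD, 2.50 ± 1.504 at 50 mg/kg and 2.87 ± 1.20 at 200 mg/kg (SD, n = 4). The difference of all Para09 animals from anti-gD was -0.88 on the log2(CPM + 0.5) scale (exact two-sided permutation p = 0.0364, 8 against 4 animals, smallest possible 0.00404). Letter B of these same animals chose the gene, so this p is a description and not an independent test. In the edgeR fit across all genes the log2 fold change was -0.79 (SE 0.36) with an adjusted p of 0.538, which does not pass (0.194 to 0.906 over the alternatives).

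ENSMFAG00000001576 (place 2, exonic width 4602 bases) varied more among controls. In letter B it stood at 2.65, 4.00, 6.95 and 2.77 CPM with anti-gD, at 1.25, 2.33, 1.79 and 2.33 CPM at 50 mg/kg and at 2.18, 1.91, 1.10 and 1.34 CPM at 200 mg/kg, in order of animal number. As the mean of letters A and C it stood at 2.66, 6.07, 3.85 and 10.7 CPM with anti-gD, at 4.37, 1.86, 1.10 and 4.09 CPM at 50 mg/kg and at 6.14, 2.38, 1.94 and 1.29 CPM at 200 mg/kg. Here 4501, 4504 and 5501 lay at or above the lowest anti-gD animal, and 5501 also lay above all anti-gD animals but 1504. The log2(CPM + 0.5) difference of Para09 from anti-gD was -0.90 (exact two-sided permutation p = 0.0889, 8 against 4 animals). The edgeR log2 fold change was -0.81 (SE 0.36, adjusted p 0.527, and 0.246 to 0.906 over the alternatives), and without control animal 1502 it was -0.45. Per dose, the exact permutation p of 4 against 4 animals was, for the lower dose, 0.0857 for the first gene and 0.2 for this one, and for the higher dose 0.114 and 0.171, where 0.0286 is the smallest possible. These are 6 tests on 2 genes that letter B of the same animals chose, so their p-values are descriptions and not independent tests.

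**Figure D2:**
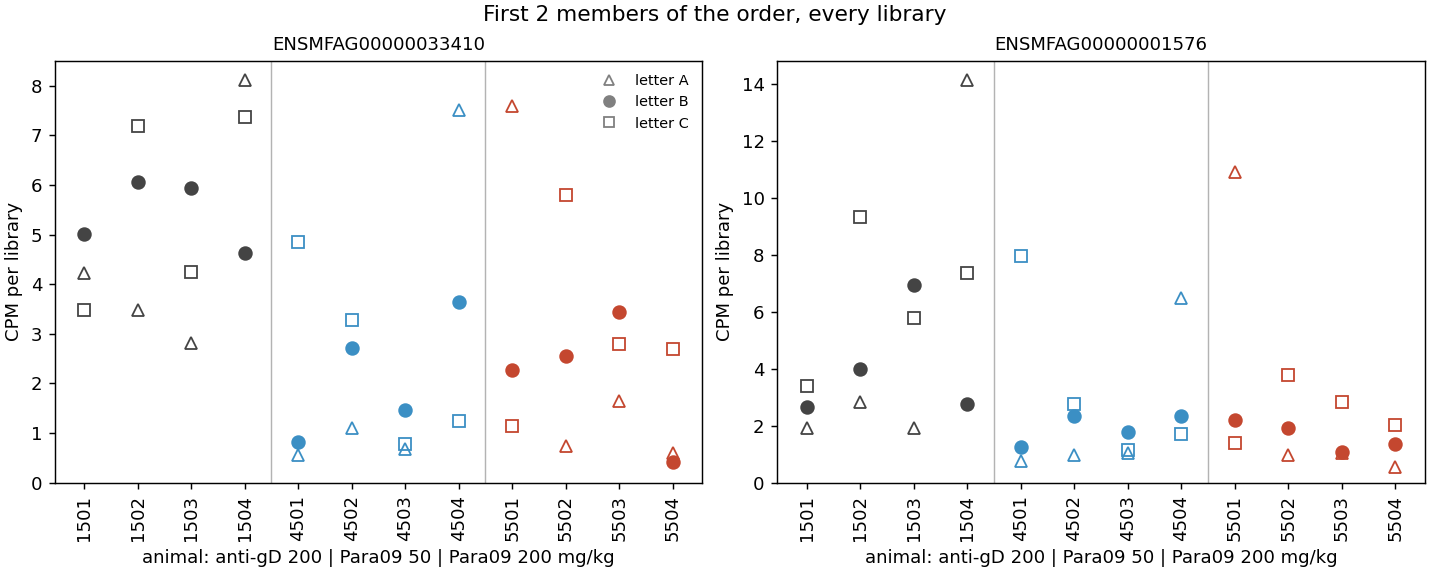
CPM of the first 2 members in each of the 36 libraries, by animal, with letter B as filled circles, letter A as open triangles and letter C as open squares; dark grey is anti-gD, blue Para09 at 50 mg/kg and red Para09 at 200 mg/kg. The letter A libraries of 4504 and 5501 stand at 7.52 and 7.59 CPM for ENSMFAG00000033410, within the range of the control libraries, while letter C of the same animals stands at 1.24 and 1.14.

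Within some animals both genes moved several fold from letter to letter. ENSMFAG00000033410 stood at 7.59 CPM (149 reads) in letter A of animal 5501 and at 1.14 CPM (23 reads) in its letter C, and at 7.52 CPM (278 reads) and 1.24 CPM (31 reads) in letters A and C of 4504. The order was the reverse in 4501, with 0.550 CPM in letter A and 4.84 CPM in letter C, in 5502, with 0.731 and 5.80 CPM, in 4502, with 1.10 and 3.28 CPM, and in 5504, with 0.604 and 2.68 CPM. Letters A and C lay closer in the other Para09 animals, at 0.684 and 0.790 CPM in 4503 and 1.64 and 2.79 CPM in 5503. In control animals they stood at 4.23 and 3.48 CPM in 1501, 3.47 and 7.19 CPM in 1502, 2.81 and 4.24 CPM in 1503 and 8.11 and 7.36 CPM in 1504. ENSMFAG00000001576 showed the same order in 5501, 4504, 4501 and 5502, at 10.9 and 1.38 CPM in 5501, 6.46 and 1.73 CPM in 4504, 0.779 and 7.97 CPM in 4501 and 0.989 and 3.77 CPM in 5502. In controls its letters A and C were also far apart, at 2.81 and 9.33 CPM in 1502 and 14.1 and 7.36 CPM in 1504.

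Over all members, 22 of 24 stood lower with Para09 than with anti-gD in letters A and C, where 49.9% of the 16987 genes tested did. The median log2 fold change of the members was -0.34 (range -0.91 to 0.10), against 0.00055 for all genes tested. This is an edgeR quasi-likelihood fit on counts summed over letters A and C of each animal, with the identifier series as a covariate. None of the 24 members passed a Benjamini-Hochberg adjusted p under 0.05, and neither did any other gene (0% called), while 1568 genes had an unadjusted edgeR p under 0.05 in either direction and DESeq2 called 63. Before adjustment, 15 members had an edgeR p under 0.05 and were lower, against 4.72% of all genes, and the lowest adjusted p of a member was 0.39. Since letters A and C come from the animals that chose the members, a difference between these animals that has nothing to do with treatment would recur here too. The 2 readings therefore do not count as separate sets of animals.

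Measured against the spread among animals, 16 of 24 members were lower in letters A and C by more than 1 SD of log2 CPM within groups, against 7.02% of eligible genes. The median SD among animals of a group was 0.26 for members and 0.24 for eligible genes. Complete separation was rarer. In the mean of letters A and C the 8 Para09 animals lay below the 4 anti-gD animals for 3 of 24 members. Here and in the other counts of separation in letters A and C, the background is the share over the 13520 to 13535 genes that met the same width and the same mean CPM in the libraries compared, which included all 24 members. It was 0.259% for this arrangement, and 38 genes showed the opposite one. The number of members was 9 within the second series (7 against 3 animals, background 2.65%) and 8 without animal 5501 (7 against 4 animals, background 0.983%). In letter A alone it was 0 of 24 (background 0.118%), and in letter C alone 1 of 24 (background 0.163%).

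The 3 members that stayed separate were those at places 3, 7 and 11, picked out here after their values were seen. The member at place 3 (width 7124 bases) stood at 31.1, 29.9, 26.5 and 29.5 CPM with anti-gD, at 14.2, 15.0, 11.9 and 21.7 CPM at 50 mg/kg and at 22.7, 21.0, 18.9 and 18.5 CPM at 200 mg/kg, as means of letters A and C. Its edgeR log2 fold change was -0.70 (SE 0.15, adjusted p 0.425). The member at place 7 (width 3828 bases) ran from 24.4 to 33.9 CPM with anti-gD and from 9.19 to 20.4 CPM over the 8 Para09 animals, with a log2 fold change of -0.91 (SE 0.20, adjusted p 0.425). The member at place 11 (width 1941 bases) stood at 7.53 CPM ± 0.4996 with anti-gD, 3.39 ± 0.849 at 50 mg/kg and 5.27 ± 0.680 at 200 mg/kg (SD, n = 4), with a log2 fold change of -0.83 (SE 0.16, adjusted p 0.39). DESeq2, run as an alternative, called these 3 of the 24 members (adjusted p 0.0121, 0.0161 and 0.00278), where it called 0.171% of all genes as lower. In the mean of letters A and C none of the 3 had a Para09 animal inside the anti-gD range, yet none was separate in letter A alone or letter C alone. For place 3 in letter A, 4504 and 5501 stood at 30.9 and 30.2 CPM, inside the control range of 24.4 to 31.8. For place 3 in letter C, 5502 stood at 29.7 CPM, inside the control range of 28.6 to 33.9.

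The members with the highest CPM were those at places 17, 16 and 24, and their differences were small. Place 17 (width 15319 bases) ran from 235 to 273 CPM in the 4 anti-gD animals and from 174 to 237 CPM in the 8 Para09 animals, as means of letters A and C, so that the ranges overlapped slightly. Its edgeR log2 fold change was -0.30 (SE 0.084, adjusted p 0.443). Place 16 (width 13554 bases) ran from 174 to 261 CPM with anti-gD and from 150 to 206 CPM with Para09, with a log2 fold change of -0.175 (SE 0.078). For the member at place 24 (width 3953 bases) the ranges were 88.1 to 113 CPM and 77.4 to 113 CPM, at -0.11 (SE 0.089).

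At the other end, 3 members showed no such difference in letters A and C. The member at place 4 stood at 16.9 CPM ± 0.910 with anti-gD in letter B against 13.8 ± 0.482 CPM with the lower dose and 13.8 ± 1.80 CPM with the higher. In letters A and C the same groups stood at 14.4 ± 2.20, 14.2 ± 0.529 and 15.1 ± 1.0497 CPM (SD, n = 4), with a log2 fold change of 0.0054 (SE 0.11). The member at place 12 stood at 11.4 CPM ± 2.10 with anti-gD against 11.4 ± 1.37 and 11.2 ± 1.49, and the member at place 23 at 3.74 ± 0.679 against 3.91 ± 0.316 and 4.04 ± 0.439. Their log2 fold changes were -0.032 (SE 0.14) and 0.097 (SE 0.14), within 1 SE of 0.

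**Figure D3:**
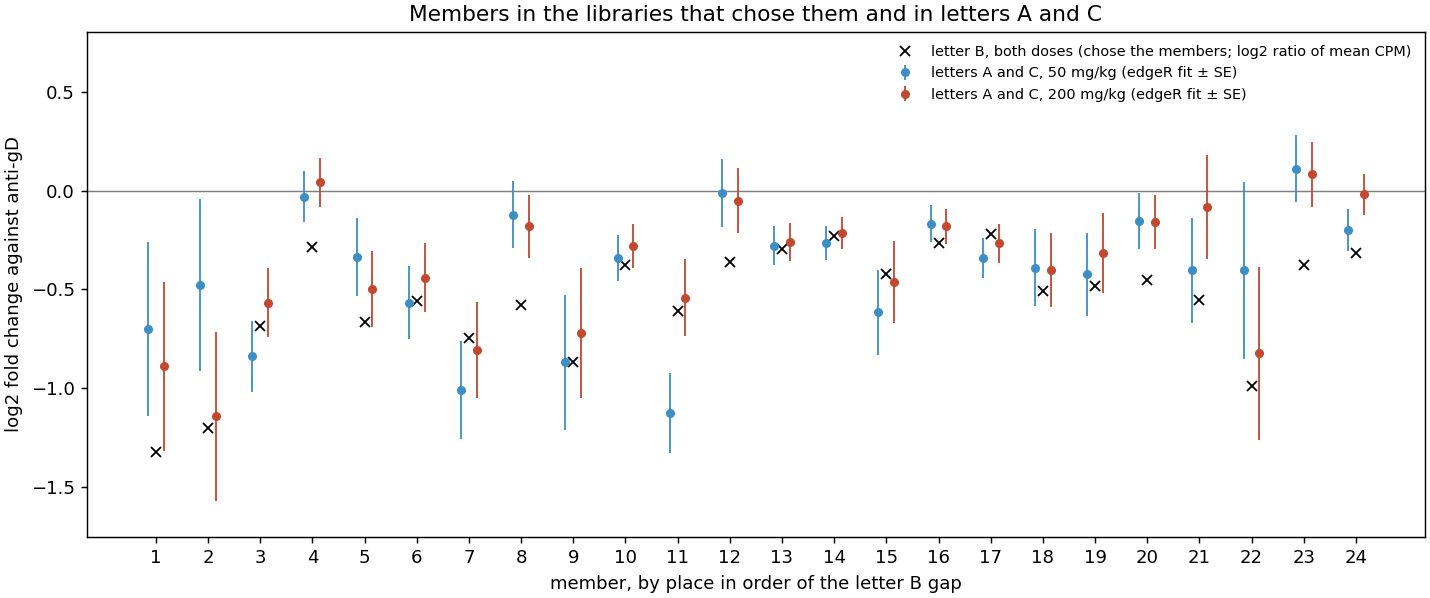
Log2 fold change against anti-gD for each member in order of its letter B gap: crosses give letter B, which chose the members, and points with bars the edgeR fit of letters A and C ± SE at 50 mg/kg (blue) and 200 mg/kg (red). Most points lie below 0, and those at places 4, 12 and 23 lie within 1 SE of 0 at both doses. The points of places 8 and 22 at 50 mg/kg and of places 21 and 24 at 200 mg/kg also do.

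By dose, both comparisons with anti-gD share the 4 control animals and are given side by side. At 50 mg/kg 23 of 24 members were lower in letters A and C (49.6% of all genes), with a median log2 fold change of -0.37. At 200 mg/kg 22 of 24 were lower (50.4% of all genes), with a median of -0.30. At an unadjusted edgeR p under 0.05 there were 10 lower members at 50 mg/kg (3.8% of all genes) and 12 at 200 mg/kg (3.37%), and 0 members and 0% of genes passed after adjustment at either dose. In either direction 1214 genes at 50 mg/kg and 1211 at 200 mg/kg had an unadjusted edgeR p under 0.05, and DESeq2 called 27 and 32. The shares over all genes moved with the animals as well. The 200 mg/kg count of members was 3 without animal 5504 (1.63% of all genes), 7 without control 1501 (2.34%), 7 without control 1502 (4.95%) and 5 without the series covariate (1.39%). The 50 mg/kg count was 16 without animal 4504 (5.38% of all genes). In letter A alone the lower dose gave 2 such members (3.3% of all genes) and the higher dose 3 (3.17%). Letter C alone gave 13 at the lower dose (4.85% of all genes) and 5 at the higher (1.1%). The 4 animals at 50 mg/kg lay below all anti-gD animals for 8 members (background 2.17%) and those at 200 mg/kg for 4 members (background 0.533%). DESeq2 called the members at places 3, 7 and 11 at 50 mg/kg (0.1% of all genes called lower) and 0 members at 200 mg/kg (0.0648%).

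In letter B, whose Para09 values chose the members, the 200 mg/kg mean was below the 50 mg/kg mean for 19 of 24 members (46.7% of eligible genes). That count is given as a description only. In letters A and C the 200 mg/kg mean was below for 2 of 24 (40.2% of eligible genes). The edgeR fit of letters A and C, which adjusts for the series of animal 5501, put 10 of 24 lower at 200 than at 50 mg/kg (50.9% of all genes). That number was 17 in letter A alone (55.6% of all genes) and 4 in letter C alone (48.0%). No member and 0% of genes passed the adjusted edgeR test between doses, where 472 genes had an unadjusted p under 0.05 and DESeq2 called 1. The member at place 11 had the smallest edgeR p, 0.013 before adjustment and 1 after it, at a log2 fold change of 0.58 (SE 0.20) toward 200 mg/kg.

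The members were uneven between the libraries of an animal. The SD between letters A and C within an animal had a median of 0.44 on the log2 scale for members against 0.23 for eligible genes, and 12 of 24 members exceeded the eligible 90th percentile of 0.42, which 10% of eligible genes do by construction. For these 12 (places 1, 2, 3, 5, 6, 7, 9, 11, 15, 18, 19 and 22) letter A stood above letter C in 12 of 12 members in 4504 and 5501, and below it in 12 of 12 in 4501, 4502, 5502, 5503 and 5504. The median log2 difference of A from C was 1.48 in 4504 and 1.37 in 5501, and -1.97 in 4501, -1.24 in 5502, -0.86 in 5504, -0.80 in 4502, -0.62 in 5503 and -0.20 in 4503. In control animals 1501 to 1504 it was 0.19, -0.58, -0.23 and 0.14. Letters A and C of each animal lie in the same series, the first for 5501 and 1504 and the second for the rest. These differences between letters A and C therefore lie within 1 series in every animal.

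**Figure D4:**
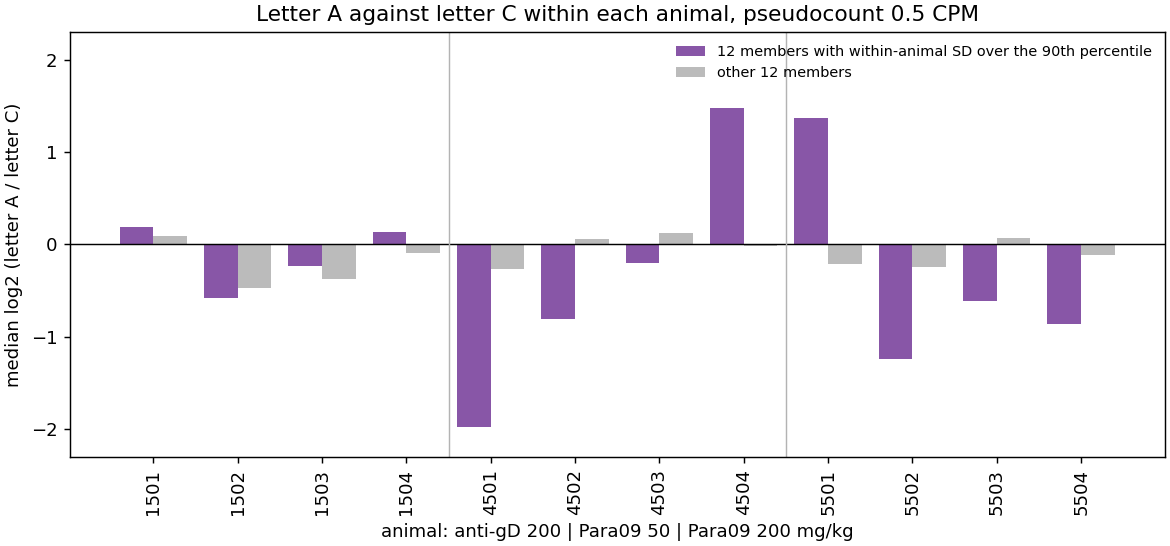
Median log2 ratio of letter A to letter C in each animal, for the 12 members with the largest differences between letters (purple) and the other 12 (grey). Purple bars reach 1.48 in 4504 and -1.97 in 4501, and the grey bars run from -0.47 to 0.12. The purple members were chosen by the size of this same difference, so longer purple bars follow in part from the choice.

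The direction from letter to letter, down in A in those 5 Para09 animals and up in A in 4504 and 5501, was shared by 14 of 24 members and by 4.98% of the 13533 genes with that width and that mean CPM in letters A and C. This pattern was picked after the values were seen, as the direction that all 12 of the uneven members listed above share. Those 12 are therefore among the 14 by construction, and the count is not support for a pattern particular to the members. Over eligible genes as a whole the median difference of A from C stayed between -0.11 and 0.07 in every animal. The 12 uneven members had a median log2 ratio of Para09 to anti-gD of -0.67 in letter B and -0.74 in letters A and C, and 12 of 12 were lower in letters A and C. The other 12 had medians of -0.34 and -0.22, and 10 of 12 were lower.

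Read as a set, the median over members of the log2 ratio to the anti-gD mean of the same letter was -0.80 to -0.25 in the 8 Para09 libraries of letter B, which the rule fixed. In letter A it was -1.15, -0.68, -0.66 and 0.09 at 50 mg/kg and 0.20, -0.58, -0.54 and -0.67 at 200 mg/kg, against 0.01, -0.17, -0.35 and 0.36 with anti-gD. Animals 4504 and 5501 thus stood inside the anti-gD range in letter A and the other 6 below it. In letter C the set stood at -0.19, -0.42, -0.89 and -0.77 at 50 mg/kg, at -0.31, -0.10, -0.27 and -0.38 at 200 mg/kg and at -0.27, 0.16, -0.14 and 0.08 with anti-gD. There 4501 and 5502 stood inside the anti-gD range, and 5503 lay below it by less than 0.01.

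Animal 5501 was at or above the lowest anti-gD animal for 19 of 24 members in the mean of letters A and C, and the other Para09 animals for 6 to 13. It was the highest Para09 animal for 17 members there, but for 1 member in letter B. The same counts were not taken over eligible genes, so they cannot be read as particular to the members. The libraries of 5501 all lie in the first series, whose other letter A and C libraries come from control 1504. Within the second series alone, 10 members were lower at an unadjusted edgeR p under 0.05, where 8.28% of all genes were.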

How the data were processed

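Per the labels, total RNA came from frontal cortex. The deposited tables give, per the file headers, a whole-number count, an exonic width (another deposited value, in bases) and an RPKM per gene and library. GSNAP is named in the submitters' processing notes. Genome build, annotation release, strand and multi-mapped reads are not stated in the labels or headers, so overlapping or near-identical genes may share counts. The authors' RPKM values were used only to compare levels between genes.

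CPM was computed from the deposited counts. Counts of letters A and C were summed per animal. The test was the quasi-likelihood test of edgeR 4.0.16 under R 4.3.3 (TMM, filterByExpr, 3 groups plus a series indicator, Benjamini-Hochberg over 16987 genes), checked on simulated data. DESeq2 1.42.0 and limma 3.58.1 were alternatives. Exact permutation tests used log2(mean CPM + 0.5) and scipy 1.17.1. The animal is the replicate, and no source says whether the libraries of an animal are separate tissue pieces.

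Members and tests were chosen with earlier results of these data known. Identifiers of the first 2 members by gap are printed. Gene lists and cell type markers were not applied, because they need gene names, and a check against other choices of 4 animals was not run.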

Additional observations from a re-analysis of the deposited data

Results flagged for a closer look

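An isolated value was searched for in 24 groups of 4 animals and found in 1, where chance alone isolates a value in about 1 group in 20. In letter A at 200 mg/kg, the median level of the members was 0.204 (log2 ratio to the anti-gD mean) in animal 5501 and -0.672 to -0.537 in the other 3 animals.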

How the results depend on the processing

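The number of genes meeting the letter B conditions was 24, and 38 when letters A, B and C were summed, of which 6 were members; over leaving out each animal it ran from 25 to 111. Members without overlap in letters A and C numbered 3 (background 0.259%), against 0 in letter A (0.118%), 1 in letter C (0.163%) and 9 in the second series (2.65%). They numbered 3 to 8 over leaving out each animal, with 8 reached without 5501 (background 0.983%). For the other animals left out the background was not computed. Genes called for Para09 against anti-gD numbered 0 by edgeR, 63 by DESeq2 and 5 by limma voom on 24 libraries; at 200 mg/kg 0, 32 and 14, with 2 when no low-count filter was used; at 50 mg/kg 0 and 27 by DESeq2; and between doses 0, with 1 by DESeq2, 1 by limma voom and 1 with only the groups compared. Leaving out an animal gave 0 to 1 in each of the 4 comparisons. Without animal 4504, the 1 gene of 17133 called at 50 mg/kg was a member, and it was lower (adjusted edgeR p 0.0459). Lower members at an unadjusted edgeR p under 0.05 numbered 15 (4.72% of all genes), against 8 in letter A (5.3%) and 11 in letter C (3.07%). Over leaving out each animal they numbered 10 to 17, where the share of all genes ran from 2.9% to 8.17%. Without 1504 or without 5501 the series covariate fits the other exactly, so in effect both animals drop out of those edgeR fits. Each of those 2 fits gave 10 members, at 8.15% and 8.17% of all genes. Members lower at 200 than at 50 mg/kg numbered 10, against 4 without the series covariate, 17 in letter A, 4 in letter C and 6 by limma trend, and 6 to 11 over leaving out each animal, while 48.0% to 55.6% of all genes were lower under these alternatives. The causes were not tested. The count of members lower with Para09 ran from 20 to 23 over leaving out each animal (47% to 50.7% of all genes), and their median log2 fold change from -0.40 to -0.29. Another pseudocount (0.1 or 1 CPM) turned no direction and moved no exact permutation p of the first 2 members across 0.05. No paired analysis was possible because animal numbers are not shared between groups. At 1 CPM a letter B library gives 15.1 to 24.9 reads, so the lowest levels rest on few reads. How far depth limits them was not tested.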
